A study of Homo sapiens with 2 samples.

Results

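Epithelial-mesenchymal transition (EMT) genes were described in SAS, a human cell line established from a squamous cell carcinoma of the tongue. The genes were the transcription factors SNAI1, SNAI2, TWIST1, ZEB1 and ZEB2, the intermediate filament gene VIM, the cadherins CDH1, CDH2 and CDH3, and the splicing regulator ESRP1. They were taken as the probes that the array's annotation assigns to exactly 1 gene where that gene is one of these 10. That gave 10 of the 18336 genes named by such probes and 12 of the 31741 probes on the array, 2 each for ZEB1 and ESRP1 and 1 for each of the other 8 genes.

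The cells labelled shATMIN carried a short hairpin RNA (shRNA) against ATMIN, the gene of a zinc finger protein that interacts with the kinase ATM and also regulates transcription. The control is labelled neo, and the labels do not state its construct. Hairpin plasmids were delivered by lipid transfection and resistant clones were picked in 3 µg/mL puromycin, in wording that the labels repeat for both samples. The serum percentage and the hours before selection were also listed as the same for both. Whether a sample is 1 clone or a mixture is not stated. Each group had 1 sample, with 2 arrays listed per sample and 1 deposited intensity per probe, so no difference below was checked in replicates and there are no p-values.

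In EMT, epithelial cells loosen their junctions and take up the shape and motility of mesenchymal cells. The SNAI, ZEB and TWIST factors bind E-box sequences in DNA. SNAI and ZEB factors in particular repress CDH1, which encodes E-cadherin, the main adhesion molecule of epithelial junctions. N-cadherin from CDH2 and vimentin are classic products of the mesenchymal state, while ESRP1 keeps epithelial splice forms of many transcripts. In squamous carcinomas the change is often incomplete, with SNAI2 present in cells that keep E-cadherin.

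ATMIN, the targeted gene, read 61.5 in the shATMIN sample and 105 in the neo control on its brighter probe, and 26.5 against 51.5 on its other probe. Differences are given as shATMIN minus neo control of log2(intensity + 1), which understates the differences of dim probes, and ATMIN stood at -0.76 and -0.93. A probe was compared where its mean log2 level over both samples reached 5.90, an intensity of about 58.9, and the second ATMIN probe did not reach it. Over all 12421 compared genes the median difference was -0.16 and 70.7% were lower in the shATMIN sample, so each difference is best read against that shift. Squamous markers (KRT5, KRT14, TP63 and others) reached that level for 14 of 14 genes. S100A2 read 65510 in each sample, near the highest value deposited, and the summed intensity of the other 13 was 43100 in the shATMIN sample and 43558 in the neo control.

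Among the 10 genes SNAI2 was higher in the shATMIN sample, and CDH3, ESRP1 and VIM were lower. SNAI1, TWIST1, ZEB2, CDH1 and CDH2 differed by less than 0.20 in either direction, and ZEB1 was too dim to compare. Of the 9 genes compared, 0 passed 2-fold as deposited, where 1.80% of all compared genes did. At 1.5-fold 1 gene, SNAI2, was higher, against 1.90% of all compared genes, and 2 genes, CDH3 and ESRP1, were lower, against 12.2%. In all 4 of the 9 were higher, against 29.3% of all compared genes, and 5 were lower, against 70.7%. Their median of -0.16 was that of all compared genes.

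**Figure D1:**
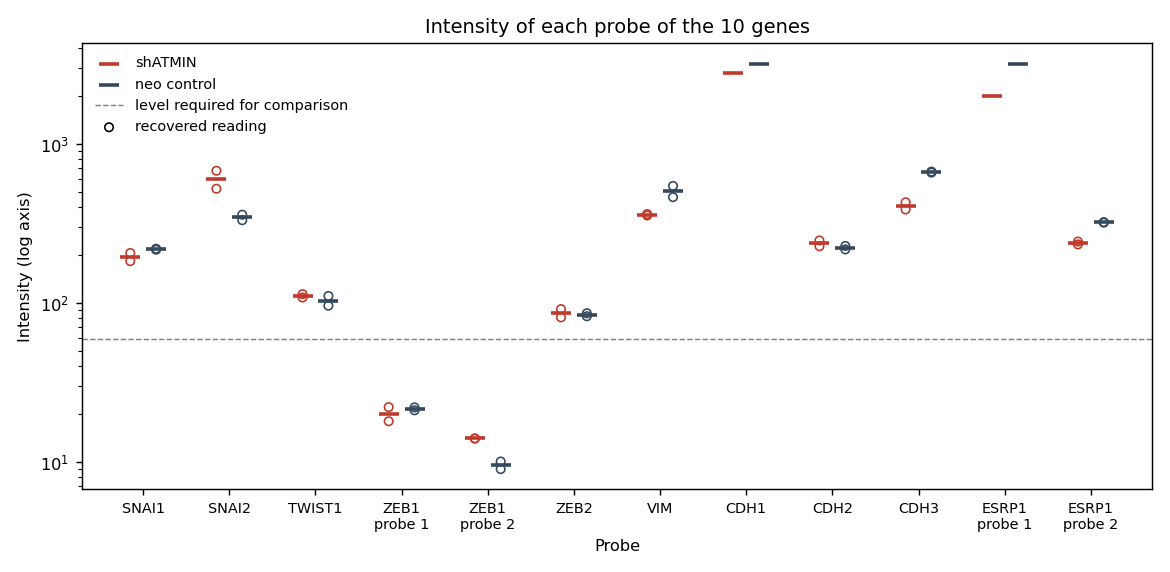
Intensity of the 12 probes on a log axis, with shATMIN left of neo control for each probe. Bars are deposited intensities, open circles are the 2 readings recovered behind each of these intensities under 1000, and the dashed line is the level required for comparison. SNAI2 readings were higher in shATMIN and VIM and CDH3 readings were lower, while both ZEB1 probes lay under the line.

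Of the deposited values under 1000, 99.6% in each sample could be resolved as the mean of 2 readings, each a whole number times a factor close to 1. The readings give a measure of spread within a sample. Whether these readings are the 2 listed arrays is not stated, so the kind of spread they hold is not known. Over 9980 compared probes the higher reading exceeded the lower one by a median of 0.09 on the log2 scale in the shATMIN sample and 0.10 in the neo control. Readings, taken without scaling, did not overlap between the samples for 70.4% of these probes. With 2 readings per sample and the shift over all genes left in, little can be read from a lack of overlap alone. It was found for 5 of the 8 compared probes of the EMT genes with readings, 1 higher in the shATMIN sample, against 21.7% of all such probes, and 4 lower, against 48.7%. A broader yardstick is the disagreement between probes of the same gene, whose differences were a median of 0.25 apart over 2973 genes, with 90% of genes up to 0.75.

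SNAI2, also called Slug, encodes a zinc finger repressor that is expressed in basal keratinocytes and neural crest as well as in EMT. Its probe read 599 in the shATMIN sample and 344 in the neo control. The readings behind these values were 521 and 676 in the shATMIN sample, against 330 and 358 in the neo control. The groups of readings were apart, and even the nearest pair of readings left a difference of 0.54. The difference of the deposited values was 0.80, or 1.74-fold. Of the compared genes 116 were as high or higher, which is 0.93% of them.

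Scaling decided whether SNAI2 passed 2-fold, since its difference of 0.80 lay near that limit and the scalings offset the downward shift of most genes. The difference was 1.03 when each sample was scaled by its 75th percentile (upper-quartile scaling) and 1.01 after quantile normalization. It was 1.01 when the loess trend of differences on level was subtracted (trend correction). Under these 3 scalings SNAI2 was therefore past 2-fold, as were 0.982%, 0.773% and 0.757% of compared genes in the same direction. One probe measured the gene.

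SNAI1, the founding Snail repressor of CDH1, read 194 in the shATMIN sample and 217 in the neo control. The difference of -0.16 equals the shift over all compared genes, and it was -0.05 after trend correction and 0.07 with upper-quartile scaling. The nearest readings were 205 in the shATMIN sample and 215 in the neo control, a gap of -0.07. SNAI2 minus SNAI1 came to 0.96, a gap that scaling by a constant leaves as it is, and to 1.06 after trend correction. That is wider than the 0.75 that holds 90% of genes with several probes, but this yardstick is for probes of the same gene. Different genes can differ more, and over all compared genes the standard deviation of the differences was 0.38. SNAI2 minus TWIST1 came to 0.70 as deposited.

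TWIST1, a basic helix-loop-helix factor that pairs with E proteins and also binds E-boxes, read 111 in the shATMIN sample and 103 in the neo control. Its readings overlapped, at 108 and 113 in the shATMIN sample against 95.8 and 110 in the neo control, and the difference was 0.10. ZEB2, a zinc finger and homeodomain repressor, read 86.0 in the shATMIN sample and 84.0 in the neo control, and its readings of 80.8 and 91.2 in the shATMIN sample enclosed those of the neo control, 82.2 and 85.8. As deposited, neither TWIST1 nor ZEB2 differed beyond the spread of their readings. These readings were not scaled for the shift over all compared genes. With upper-quartile scaling the differences were 0.33 for TWIST1 and 0.26 for ZEB2, and after trend correction 0.14 and 0.05.

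ZEB1, the close relative of ZEB2 and like it a target of the miR-200 family, was the only one of the 10 genes below the level required. Its probes read 20.0 and 14.0 in the shATMIN sample, against 21.5 and 9.50 in the neo control. They differed in opposite directions, by -0.10 and 0.51, and both lay well under 58.9. The readings of the first overlapped and those of the second did not, at 14.0 and 14.0 against 8.98 and 10.0, a difference of a few units of intensity. No direction can be read for ZEB1 from these probes.

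Promoter windows of 300 bases, 250 before and 50 from the annotated start, were taken from RefSeq on GRCh38.p14 for VIM, ZEB1, ZEB2 and CDH2. Windows were available for only these 4 of the 10 genes, and not for CDH1. They were searched on both strands for CAGGTG, whose reverse complement is CACCTG, the form of the E-box that SNAI and ZEB factors prefer. Among all 35116 windows 20.6% held at least 1 match and 0.635% held 3 or more. Of the 11 windows of VIM, ZEB1, ZEB2 and CDH2, 2 held a match, and both belong to ZEB1, which has 7 annotated starts. The sequences are shown to let the E-box be seen in its context, with matches in capitals, and the VIM window, in which these letters do not occur, is given beside them. Each is on the plus strand, at chr10:31318966-31319265 and chr10:31318167-31318466 for ZEB1 and chr10:17227991-17228290 for VIM.
ZEB1 window with 3 matches, starting at -242, -85 and 34 from the start: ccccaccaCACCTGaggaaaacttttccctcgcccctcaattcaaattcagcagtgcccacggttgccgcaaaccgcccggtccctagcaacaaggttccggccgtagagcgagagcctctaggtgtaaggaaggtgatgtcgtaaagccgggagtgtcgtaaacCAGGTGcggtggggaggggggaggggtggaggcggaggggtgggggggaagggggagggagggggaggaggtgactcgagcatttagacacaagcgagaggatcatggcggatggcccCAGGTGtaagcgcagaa
ZEB1 window with 1 match, starting at -57: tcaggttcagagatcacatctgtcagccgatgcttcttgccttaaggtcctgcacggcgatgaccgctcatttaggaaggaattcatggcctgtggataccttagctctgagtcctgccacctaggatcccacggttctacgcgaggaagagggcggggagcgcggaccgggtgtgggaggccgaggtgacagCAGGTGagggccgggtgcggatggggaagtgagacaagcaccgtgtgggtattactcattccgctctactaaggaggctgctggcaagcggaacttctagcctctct
VIM window with no match: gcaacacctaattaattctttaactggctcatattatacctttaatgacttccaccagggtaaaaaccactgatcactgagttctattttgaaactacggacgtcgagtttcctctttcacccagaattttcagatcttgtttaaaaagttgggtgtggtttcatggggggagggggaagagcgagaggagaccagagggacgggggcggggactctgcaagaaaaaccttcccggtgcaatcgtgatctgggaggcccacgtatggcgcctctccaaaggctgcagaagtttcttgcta
A match describes these letters only, and binding was not measured.

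VIM, which encodes the intermediate filament protein of mesenchymal cells, read 357 in the shATMIN sample and 502 in the neo control. The readings were 354 and 361 in the shATMIN sample, against 461 and 543 in the neo control, and did not overlap. The difference was -0.49, or 1.40-fold, and 18.1% of compared genes were as low or lower. It was -0.28 after trend correction and -0.26 with upper-quartile scaling, lower under each scaling tried but close to the 0.25 that separates probes of the same gene. SNAI2 minus VIM came to 1.29 as deposited and after trend correction, and these genes stood on opposite sides of the median of all compared genes.

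**Figure D2:**
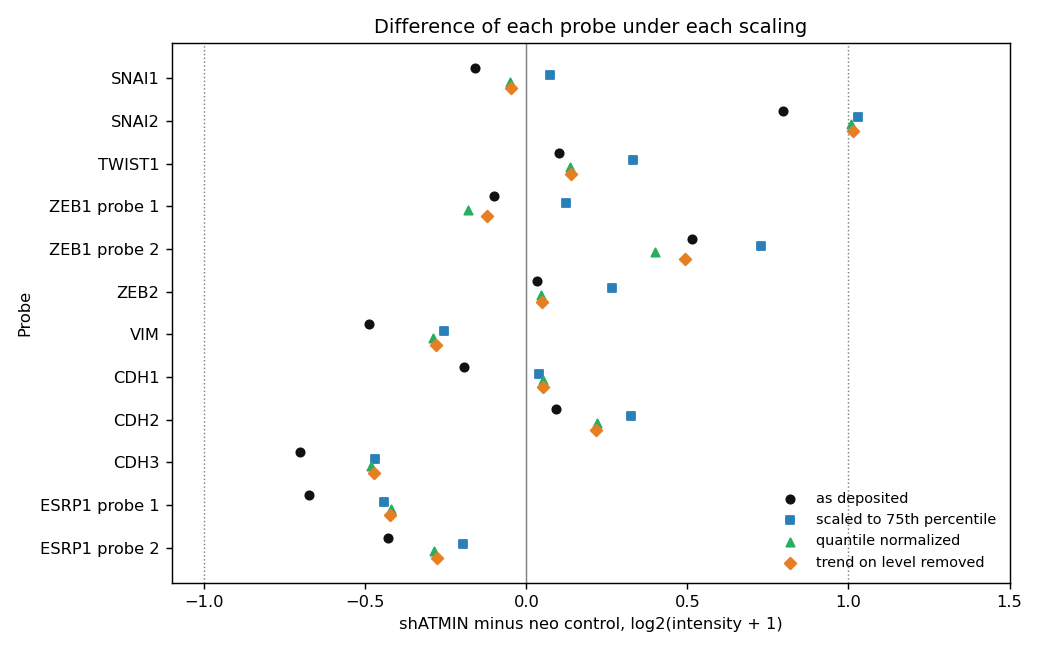
Difference, shATMIN minus neo control on the log2(intensity + 1) scale, of the 12 probes as deposited and under 3 scalings. Dotted lines mark 2-fold. SNAI2 lies at 0.80 to 1.03, CDH3 at -0.70 to -0.47, and CDH1 and SNAI1 change sign with the scaling.

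The classical cadherins bind like cadherins on neighbouring cells and connect through catenins to actin. CDH1 read 2785 in the shATMIN sample and 3188 in the neo control, a difference of -0.19, or 1.14-fold. It turned to 0.04 with upper-quartile scaling and to 0.05 after quantile normalization or trend correction, so no direction is given for E-cadherin. Its intensities were above 1000, where readings were not resolved.

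CDH2 read 237 in the shATMIN sample and 222 in the neo control, with overlapping readings of 227 and 246 in the shATMIN sample against 216 and 227 in the neo control. The difference was 0.09 as deposited and up to 0.32 under the scalings. A cadherin switch, a gain of CDH2 with a loss of CDH1, would appear as a gap between both differences, and that gap was 0.29 as deposited and 0.17 after trend correction. These values lie near the median of 0.25 between probes of the same gene.

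CDH3 encodes P-cadherin, the cadherin of basal layers of stratified epithelia. It read 407 in the shATMIN sample and 663 in the neo control. The readings were 386 and 428 in the shATMIN sample, against 658 and 668 in the neo control, and the nearest pair still differed by -0.62. The difference was -0.70, or 1.63-fold, and 7.15% of compared genes were as low or lower. It was -0.47 with upper-quartile scaling or trend correction and -0.48 after quantile normalization. CDH3 minus CDH1 came to -0.51 and -0.52 after trend correction, and CDH3 minus CDH2 to -0.79 and -0.69. Of the 3 cadherins, CDH3 was thus the one with the greatest difference, on its 1 probe.

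ESRP1, an RNA-binding protein that maintains epithelial splicing, was lower on both of its probes. The brighter probe read 1985 in the shATMIN sample and 3171 in the neo control, a difference of -0.68, or 1.60-fold. The other read 238 against 320, a difference of -0.43. On that second probe the readings were 233 and 242 in the shATMIN sample, against 319 and 321 in the neo control, and did not overlap. The probes were 0.25 apart, the median gap over genes with several probes. After trend correction they stood at -0.42 and -0.28, and with upper-quartile scaling at -0.44 and -0.20. It is the only one of the 10 genes with 2 compared probes, and both had the same sign under each of these scalings. ESRP1 minus CDH1 came to -0.48, while ESRP1 and CDH3 differed by nearly the same amount, with 0.03 between them.

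Lists of other EMT genes gave context. They are described by counts and medians with no test, beside 70.7% of all compared genes lower and 12.2% at least 1.5-fold lower as deposited. Among relatives and partners of the transcription factors 13 of 18 genes were compared, 7 higher and 6 lower, with a median of 0.02, and 8 were higher and 5 lower after trend correction. ID2, an inhibitor of basic helix-loop-helix factors, read 192 in the shATMIN sample and 116 in the neo control, a difference of 0.73, with 0.28 and 0.48 on its other compared probes. KLF8 stood at 0.49, SOX9 at -0.62 and TCF12, which encodes an E protein, at -0.48.

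Corepressors and turnover factors of the SNAI and ZEB proteins were lower in 19 of 20 compared genes, with a median of -0.52, and 9 of the 20 were at least 1.5-fold lower. After trend correction 17 of the 20 were lower, with a median of -0.27, where 49.7% of all compared genes were lower. CTBP2, a corepressor that ZEB proteins recruit, read 1252 in the shATMIN sample and 2211 in the neo control, and stood at -0.82 and, on a second probe, -0.38. The LIM proteins LIMD1 and AJUBA, partners of Snail proteins, stood at -0.82 and -0.79, with -0.18 on a second AJUBA probe. FBXW7, the substrate subunit of a ubiquitin ligase, was at -0.76, -0.53 and -0.47 on 3 probes. With upper-quartile scaling the second AJUBA probe turned to 0.05 and the list kept 17 of 20 lower.

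Epithelial state regulators and markers had 24 of 30 compared genes lower, with a median of -0.29, and 5 of them were at least 1.5-fold lower. After trend correction 19 of the 30 were lower, with a median of -0.21. The membrane protease ST14 read 192 in the shATMIN sample and 343 in the neo control, and its inhibitor SPINT1 read 75.5 against 135. MAL2, an apical transport protein, stood at -0.81. RBM47, an RNA-binding protein of epithelia, stood at -0.68, with -0.26 on a second probe. Genes whose transcripts ESRP proteins splice were lower in 8 of 11, with a median of -0.30, and in 7 of 11 after trend correction, led by FNIP1 at -0.79, CD44 at -0.67, FGFR2 at -0.62 and NUMB at -0.55. Second probes gave 0.09 for CD44, -0.07 for FGFR2 and -0.48 for NUMB. These are levels of genes, and splice forms were not measured.

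**Figure D3:**
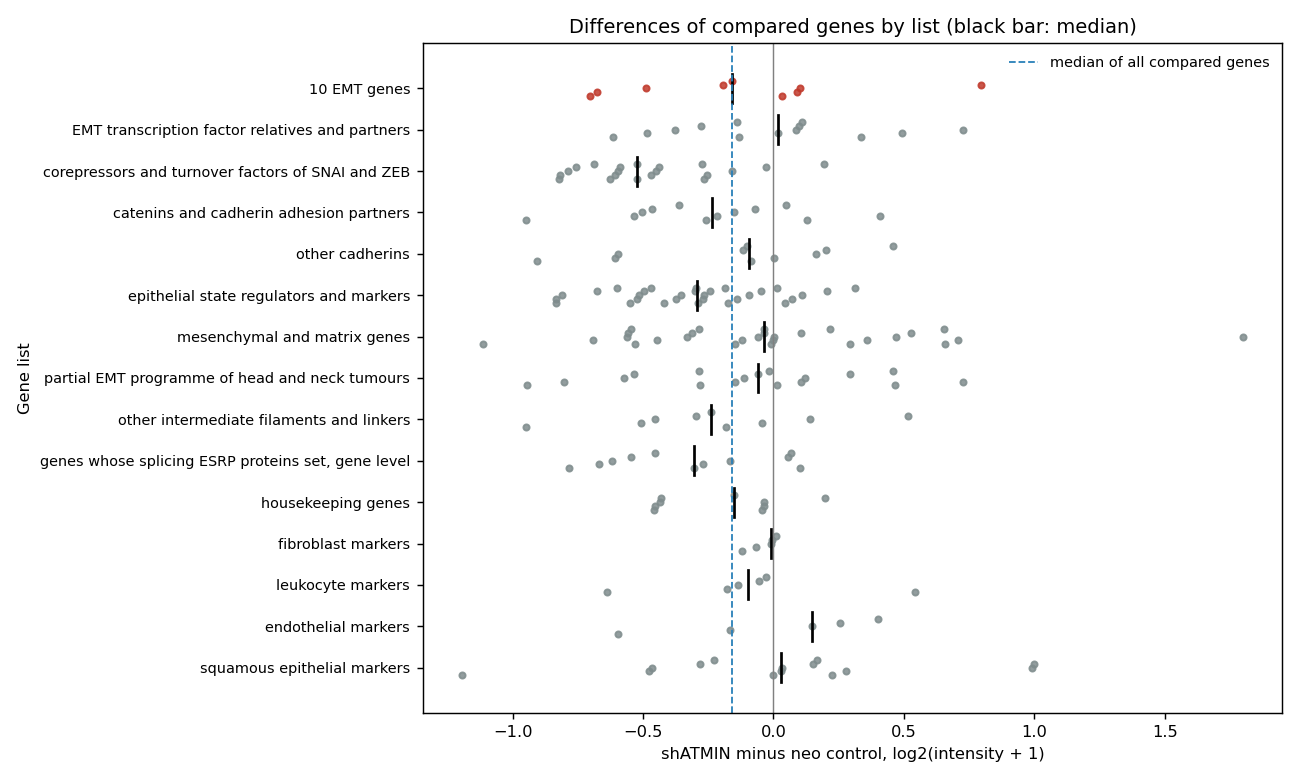
Difference, shATMIN minus neo control on the log2(intensity + 1) scale, of each compared gene (points) by list, with list medians as black bars. The dashed line is the median of all compared genes, -0.16. The 10 EMT genes (9 compared) spread from -0.70 to 0.80 around that line, and the list of corepressors and turnover factors has a median of -0.52.

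Mesenchymal and matrix genes had 12 of 28 compared genes higher and 16 lower, with a median of -0.04. After trend correction 16 were higher and 12 lower. FN1, which encodes fibronectin, read 4284 in the shATMIN sample and 1228 in the neo control, but its second probe was listed at 0 in both samples. NT5E stood at -1.11, CCN2 at 0.71 and CALD1 at -0.69, with 0.07 on a second CALD1 probe. In the partial EMT programme described in head and neck tumours 7 of 17 genes were higher and 10 lower, with a median of -0.06, and after trend correction 10 were higher and 7 lower, with a median of 0.08. THBS1, EMP3 and INHBA stood at -0.94, -0.80 and -0.57, and FSTL3 at 0.73.

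Catenins and other partners of cadherin adhesion had 9 of 12 compared genes lower, with a median of -0.24, and 6 of 12 lower after trend correction. CBLL1, which encodes the ubiquitin ligase Hakai that acts on E-cadherin, read 1041 in the shATMIN sample and 2009 in the neo control. Its second probe, under the level required, gave -0.05. NECTIN1 stood at -0.54 and -0.42 on its probes, ARVCF at -0.50 and HGS at -0.47. Of the other cadherins 10 of 19 were compared, 4 higher and 6 lower, with a median of -0.09, and 5 were lower after trend correction. CDH13 was at 0.46 and 0.61 on its probes, CDH18 at -0.61 and CDH5 at -0.60. CDH20 stood at -0.91, a value that rests on 1 of its readings, since those of the shATMIN sample were 2.99 and 110, against 102 and 112 in the neo control.

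Other intermediate filament genes and their linkers had 7 of 9 compared genes lower, with a median of -0.24, and 5 of 9 lower after trend correction, with a median of -0.06. PLEC, which links filaments to junctions, read 208 in the shATMIN sample and 401 in the neo control, and its second probe, under the level required, gave 0.28. LMNA stood at -0.51 and -0.98, LMNB2 at -0.46 with 1079 against 1082 on a second probe, and NEFM at 0.51. Housekeeping genes were lower in 8 of 9, with a median of -0.15, and 4 of 9 were lower after trend correction. PGK1, TBP, YWHAZ and PPIA stood at -0.46, -0.46, -0.44 and -0.43, with -1.07 on a second YWHAZ probe.

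Markers of other cell types were set beside VIM and the cadherins, since fibroblasts, leukocytes and endothelial cells carry them too. Fibroblast markers were compared for 5 of 12 genes, with a summed intensity over all 12 of 1832 in the shATMIN sample and 1918 in the neo control. FAP alone made up most of these sums, with 983 in the shATMIN sample and 1030 in the neo control. COL1A1, FAP, PDGFRA and LUM stood at -0.12, -0.07, -0.01 and 0.01. Leukocyte markers were compared for 6 of 11 genes on the array, with sums of 3857 in the shATMIN sample and 4219 in the neo control. CD14 alone made up most of them, with 2602 in the shATMIN sample and 2858 in the neo control. CD68, ITGAM, MS4A1 and CD14 stood at -0.64, 0.54, -0.18 and -0.14. Endothelial markers were compared for 5 of 10, with sums of 774 in the shATMIN sample and 769 in the neo control, and CDH5, TEK, ESAM and VWF stood at -0.60, 0.40, 0.26 and -0.17. None of these markers was at 0 in either sample, and their part in the VIM difference was not tested. Of the 14 squamous markers 8 were higher and 6 lower, with a median of 0.03, and 9 were higher and 5 lower after trend correction. The greatest differences among them were TP63 at -1.19, with -0.06 on a second probe, KRT6A at 1.00, KRT14 at 0.99 and SFN at -0.48.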

How the data were processed

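One intensity per probe and sample was deposited, on a linear scale from -2.00 to 65511, from Cy5 arrays with 2 arrays listed per sample, per the labels. Background subtraction was read from the values below 0 in the deposited intensities. How arrays were scanned, normalized and combined is not stated, and the number of arrays limits the precision. Negative intensities were replaced by 0 before log2(intensity + 1) was taken. Of 24740 probes naming exactly 1 gene, 1948 symbols were updated through RefSeq (GRCh38.p14). Each gene was represented by its brightest probe and compared at or above the 40th percentile of level. No test was possible with 1 sample per group, and size rules of 2-fold and 1.5-fold were used. The genes, their lists and these rules were chosen with earlier results of these data known. Every probe of the 10 genes is named, plus ATMIN and up to 4 compared genes per list with the greatest absolute difference. Readings were recovered for 99.6% of values under 1000 in each sample, within 5e-05. Alternatives covered scaling, pseudocount, dim filter, probe choice, symbols and size rule, and nearest readings were added after seeing the data. The number of unassigned columns was 0. The calculation was tested on simulated data that held no shift over all genes and no trend on level, so the test does not cover these features. The software was statsmodels 0.14.6 for loess with a span of 0.3, NumPy 2.4.6 and pandas 2.3.3 under Python 3.11.15, with figures by matplotlib 3.10.9.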

Additional observations from a re-analysis of the deposited data

How the results depend on the processing

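SNAI2 (0.70 to 1.03), VIM (-0.49 to -0.26) and CDH3 (-0.70 to -0.47) kept their direction under the 11 alternatives planned. ESRP1 (-0.68 to -0.42) and CDH2 (0.07 to 0.32) did too, as did TWIST1 and ZEB2 under the 10 that could be run. The 60th percentile filter left TWIST1 and ZEB2 out. For a gene with 1 probe, only the 3 scalings could turn the direction. The filters, probe choice, symbols and size rule left its value as deposited where it was kept, and a pseudocount cannot change its sign. For SNAI2, VIM, CDH3, CDH2, TWIST1 and ZEB2 the kept direction therefore rests on the 3 scalings. Each of these scalings raised the differences of all of these genes. Only VIM and CDH3, lower as deposited, could thus have turned. The kept direction of SNAI2, CDH2, TWIST1 and ZEB2, higher as deposited, is no check of it. The nearest pair of recovered readings, the alternative added, turned CDH2 to -0.006, TWIST1 to -0.03, ZEB2 to -0.08 and ZEB1 to 0.06, and left SNAI2 at 0.54, CDH3 at -0.62, VIM at -0.35 and SNAI1 at -0.07. Of the planned ones, CDH1 changed sign under 3 (-0.19 to 0.05), SNAI1 under 1 (-0.16 to 0.07) and ZEB1 under 3 (-0.18 to 0.21). The count of genes past 2-fold, 0 as deposited, was 1, SNAI2, with upper-quartile scaling, with quantile normalization and with trend correction, and 3 with a size rule of 1.5-fold. The same counts, 1 and 3, held for probes. These scalings move the median of all compared genes by 0.16 to 0.23, and trend correction moves single genes by other amounts. The median of the 9 genes was -0.16 to 0.07 over the alternatives that kept these 9, -0.13 without a dim filter (10 genes) and -0.19 with the 60th percentile filter (7 genes). Medians of 6 of 14 lists kept their sign throughout, among them corepressors and turnover factors (-0.52 to -0.26), epithelial genes (-0.30 to -0.06) and ESRP-spliced genes (-0.38 to -0.07). The 60th percentile filter left no endothelial marker. No paired analysis was possible because each group has 1 sample. No replicate could be left out for the same reason. Dim probes limit ZEB1, TWIST1 and ZEB2.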
